A study of Homo sapiens with 6 samples.

Results

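The WNT and beta-catenin pathway core is described here through the N6-methyladenosine (m6A) peaks on the messenger RNAs of 10 genes, which were LRP5, LRP6, DVL1, DVL3, AXIN1, AXIN2, APC, GSK3B, CTNNB1 and TCF7L2. The members were chosen by name, with earlier results of these data known. A peak belongs to a member if the authors assigned it to that gene. All 10 had at least 1 peak, out of 10776 genes with a peak in any of the 3 deposited lists, counted by gene symbol. Their peaks numbered 16 of 15272 in the control list, 19 of 13147 in the siRNA 1 list and 16 of 13310 in the siRNA 2 list. The cells were U2OS, an established human osteosarcoma line of genotype WT, treated with control siRNA, DF2 siRNA #1 or DF2 siRNA #2. DF2 stands for YTHDF2, a protein that recognises m6A and speeds the decay of transcripts carrying it. Each treatment had 1 m6A-IP library and 1 input library, made from cytoplasmic RNA in fragments of about 100 nt. The data analysed were 1 peak list per treatment, so the values below carry no SD and differences between lists could not be tested.

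Labels call the cells epithelial, whereas the line comes from bone. Of 11 osteoblast and mesenchymal markers, RUNX2, COL1A1 and ZEB1 had a peak in every list, VIM had one with siRNA 1 alone, and 7 had none (COL1A2, SPARC, SPP1, ALPL, BGLAP, TWIST1 and CDH2). Of 8 epithelial markers, 6 had none (EPCAM, CDH1, KRT18, KRT19, KRT5 and ESRP1), and KRT8 and CLDN4 had a peak in the siRNA lists alone. The markers with a peak are too few to check the cell type by. A peak needs RNA of the gene, but RNA without a peak is not seen, and the lists measure no RNA level. Depth behind the peaks is unknown, as is how far either siRNA lowered YTHDF2.

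WNT proteins signal through a Frizzled receptor with LRP5 or LRP6 as co-receptor, and the Dishevelled proteins, DVL1 and DVL3 among them, carry the signal inside the cell. Without WNT, a destruction complex built on AXIN1 or AXIN2 and APC holds the kinase GSK3B against beta-catenin (CTNNB1), which is phosphorylated and degraded. With WNT, beta-catenin accumulates and joins TCF7L2 and related factors on DNA, where AXIN2 is a widely used target gene and a feedback inhibitor. m6A on messenger RNA lies mostly near stop codons and in 3′ UTRs, and also in long internal exons and 5′ UTRs.

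Peaks were present on nearly all of these genes in each condition. The control list held a peak for 9 of the 10, the siRNA 1 list for 8 and the siRNA 2 list for all 10, against 88.6%, 77.6% and 79.4% of all genes with a peak in any list. LRP5, LRP6, DVL1, AXIN1, APC, GSK3B and CTNNB1, 7 of 10, had a peak in all 3 lists, against 65.4% of all genes. None of the 10 had a peak in control alone, against 12.0% of all genes. DVL3 was the 1 member found with each siRNA and not in control, a pattern of 3.54% of all genes. AXIN2 and TCF7L2 were missing only from the siRNA 1 list, as were 7.57% of all genes. These shares over all genes are the background against which the 10 members are read, and with 1 list per condition no test was made. Since the members were chosen with earlier results known, the counts describe them and are no independent result.

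The authors gave each peak a score, a fold enrichment and a −log10 FDR. The score has no stated definition and its median differed between lists, so each peak was placed at a percentile of its own list, where 100 is the highest score. Percentiles of different lists stand side by side and measure no change. CTNNB1 had the highest score percentile among the members in every list, at 98.6 for control, 98.8 for siRNA 1 and 98.7 for siRNA 2. LRP6 (97.5, 90.9 and 89.0) and AXIN1 (86.8, 84.0 and 89.8) came next. APC was the fourth member in control at 75.1, and the lowest of the 8 members present with siRNA 1 at 63.4. GSK3B stood at 65.7, 83.0 and 77.5, DVL1 at 64.2, 80.7 and 79.6, and LRP5 at 46.8, 69.8 and 65.7. TCF7L2 (35.9 in control and 26.8 with siRNA 2) and AXIN2 (19.7 and 16.0) were lowest where they had a peak. Without replicate lists, neighbours in these orders cannot be told apart. Over the 7 genes present in every list, the median of the strongest peak was 75.1, 83.0 and 79.6, beside 70.7, 63.8 and 66.5 over the 7048 such genes of the series.

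**Figure D1:**
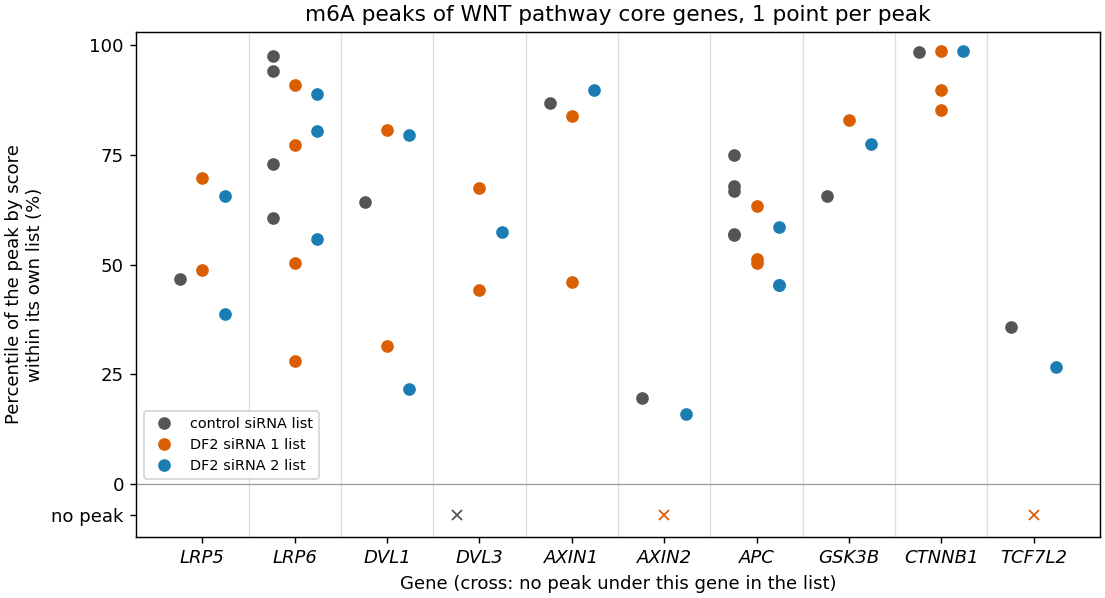
Percentile of each m6A peak by the authors' score within its own list, for the 10 genes, with 1 point per peak and a cross for a gene without a peak in the list. CTNNB1 points reach 98.6 to 98.8 in all 3 lists, and the crosses mark DVL3 in control and AXIN2 and TCF7L2 with siRNA 1.

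LRP6, a co-receptor that recruits AXIN1 to the membrane when WNT binds, had the most m6A peaks of the receptor pair. It lies on the minus strand of chromosome 12 (ENSG00000070018, hg38). The control list held 4 peaks along it, the siRNA 1 list 4 and the siRNA 2 list 3. The strongest lay at the 5′ end and spanned introns. It ran over chr12:12187044-12266812 in control, with score 2972 (rank 388 of the list), fold 67.3 and a −log10 FDR of 16.2. In both siRNA lists it ran over chr12:12203327-12267012, with folds of 66.2 and 53.0 and −log10 FDR values of 21.9 and 12.6. It covered 800 bases in each list, of which 600 were common to control and each siRNA list. In control its parts included the 5′ UTR, coding sequence and an annotated stop codon, and in the siRNA lists the 5′ UTR and coding sequence. The second peak, in coding exons, covered 1000, 600 and 800 bases in the control, siRNA 1 and siRNA 2 lists. The third covered the same 400 bases at the stop codon, chr12:12120962-12121361, in all 3 lists, at percentiles 73.0, 50.5 and 55.8. A 200-base peak in the 3′ UTR, chr12:12118962-12119161, was in the control and siRNA 1 lists (−log10 FDR 1.53 and 1.62) and not in the siRNA 2 list. In all, 1600 bases of LRP6 were covered in every list.

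LRP5, the other co-receptor, had fewer and lower peaks, on the plus strand of chromosome 11 (ENSG00000162337). Its control list held 1 peak, at the stop codon (chr11:68448912-68449275, 364 bases), with score 130, fold 9.64 and −log10 FDR 1.58. Both siRNA lists covered 200 bases of this place, chr11:68448912-68449111, with folds of 13.0 and 10.8. Each siRNA list also held a peak near the start of the coding sequence that control lacked. With siRNA 1 it ran over chr11:68312609-68363754 and covered 800 bases of 5′ UTR and coding sequence (fold 15.0, −log10 FDR 3.07). With siRNA 2 it covered 600 of the same bases, all coding (fold 13.2, −log10 FDR 2.16). By score and by fold, the strongest LRP5 peak in both siRNA lists was the upstream one, while control held the stop codon peak alone. By −log10 FDR the stop codon peak was the higher with siRNA 1 (3.16 against 3.07), and the upstream peak with siRNA 2 (2.16 against 1.56).

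Both Dishevelled genes, whose products link the receptors to the AXIN complex, had a peak at the very start of the transcript in the siRNA lists alone. DVL1 (ENSG00000107404, minus strand of chromosome 1) had a 200-base 5′ UTR peak at chr1:1349151-1349350, 68 bases inside the RefSeq gene start, under either siRNA but not under control siRNA. Its score was low in each, at percentile 31.5 with siRNA 1 and 21.7 with siRNA 2, with −log10 FDR values of 6.61 and 2.86. At the DVL1 stop codon the control peak covered 400 bases (chr1:1335890-1336289), all of them also covered in the siRNA lists, whose peaks were 1200 and 600 bases long. The fold of this peak was 11.5, 41.8 and 24.7 in the control, siRNA 1 and siRNA 2 lists, and the −log10 FDR was 1.62, 14.0 and 4.88. The control value lies near the limit of the lists, an FDR of 0.05. By fold, the control percentile of the strongest peak was 26.5 for DVL1 and 18.8 for LRP5, lower than by score.

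DVL3 (ENSG00000161202, plus strand of chromosome 3) had no control peak. Its 5′ peak began at chr3:184155388, 11 bases into the RefSeq gene, in both siRNA lists. It covered 400 bases of 5′ UTR and coding sequence with siRNA 1 (score 66, fold 25.1, −log10 FDR 7.80) and 200 bases of 5′ UTR with siRNA 2 (score 137, fold 19.1, −log10 FDR 3.73). A second DVL3 peak, at the stop codon (chr3:184170521-184170920), was in the siRNA 1 list alone, with a fold of 8.94 and a −log10 FDR of 1.43. The 5′ peak of DVL3 passes an FDR of 0.01 with each siRNA. With that limit in all lists, LRP5 and DVL1 also have no control peak. The members found with each siRNA but not in control then number 3 instead of 1. How many of all genes show this pattern at that limit was not counted, so the 3.54% over all peaks is no background for it.

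**Figure D2:**
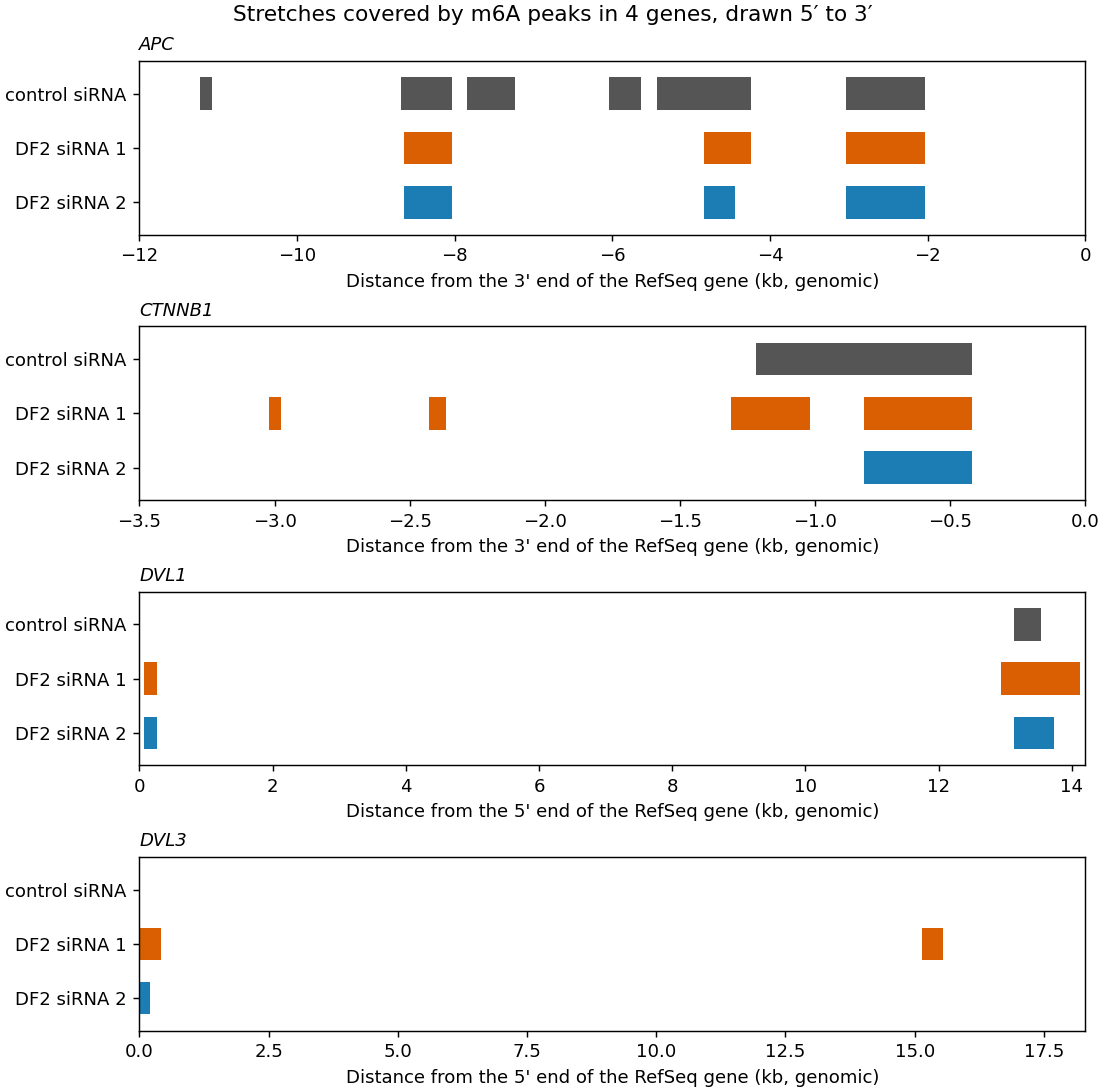
Stretches covered by m6A peaks in APC and CTNNB1, by distance from the 3′ end of the RefSeq gene, and in DVL1 and DVL3, by distance from its 5′ end, in kb of genomic sequence, with a row per list. APC has 5 peaks in control and 3 in each siRNA list, DVL1 and DVL3 have a stretch at the 5′ end in the siRNA rows alone, and the CTNNB1 5′ UTR peak of siRNA 1 lies outside the plotted range.

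The AXIN scaffolds differed from each other in the strength and the annotated parts of their peaks. AXIN1 (ENSG00000103126, minus strand of chromosome 16), the scaffold present in most cells, had its main peak over the 5′ UTR and coding sequence and none at the stop codon. In control it ran over chr16:314548-352473 and covered 1200 bases, with score 1077, fold 49.7 and −log10 FDR 12.1. The siRNA 2 list held exactly the same 1200 bases (fold 66.8), and the siRNA 1 list the same 1200 and 200 more at the 5′ side (fold 56.4). A second AXIN1 peak of 200 coding bases, chr16:297892-298091, was in the siRNA 1 list alone, at percentile 46.1 and a −log10 FDR of 2.07.

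AXIN2 (ENSG00000168646, minus strand of chromosome 17), the WNT-induced scaffold, had the lowest score percentiles of the 10 genes. The other rankings placed it differently. By fold, AXIN2 stood at percentile 38.5 in control, above TCF7L2 (36.3), DVL1 (26.5) and LRP5 (18.8), but was the lowest member with siRNA 2. By −log10 FDR, AXIN2 stood at percentile 54.7 in control and 51.7 with siRNA 2, and was lowest in neither list. Its control peak ran over chr17:65549628-65558572 and covered 800 bases, with score 22, fold 14.7 and −log10 FDR 5.54. It was annotated to coding sequence, a stop codon and 3′ UTR. Yet it began 3076 bases inside the RefSeq gene start and ended 21065 bases before the gene end. The siRNA 2 peak covered the same 800 bases and 200 more, with score 16 and fold 12.4. No siRNA 1 peak was assigned to AXIN2. However, the siRNA 1 list held a peak assigned to another gene symbol, CTD-2535L24.2, on the same strand at chr17:65557936-65558335, and all 400 of its bases lay inside the control peak of AXIN2. CTD-2535L24.2 had a peak over AXIN2 in the other lists too, with 763 of 800 bases in control and 963 of 1000 with siRNA 2 inside AXIN2 peaks of any list. The siRNA 1 peak was weak, with score 5, fold 5.10 and −log10 FDR 1.94. By place, then, AXIN2 was covered in all 3 lists, and which of the overlapping genes the RNA came from cannot be told apart. Among all 2108 genes with a control peak and none with siRNA 1, 1.85% had such an overlap with a peak of another symbol, and the share was 1.96% of the 1682 genes without a siRNA 2 peak, none of them a member.

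APC, the large scaffold that most colorectal tumours lose, had the most covered bases of the 10 genes in the control and siRNA 1 lists and as many as LRP6 with siRNA 2, on the plus strand of chromosome 5 (ENSG00000134982). Most of its coding sequence lies in a single long last exon. The control list held 5 peaks covering 4000 bases, the siRNA 1 list 3 peaks covering 2200 and the siRNA 2 list 3 covering 2000. Places covered in every list amounted to 2000 bases. The peak farthest downstream, chr5:112843200-112844199, which includes a stop codon, covered the same 1000 bases in all lists, with folds of 42.8, 22.9 and 21.0. The most upstream peak ended at 112838199 in every list and covered 800 bases in control, where a separate stretch reached back to 112835013, and 600 bases in each siRNA list. Its fold was 45.6, 14.4 and 17.0 in the same order of lists. Between them, the control list had 3 peaks. Those at chr5:112838400-112838999 (fold 14.0) and chr5:112840200-112840599 (fold 14.5) overlapped no peak of either siRNA list. The third, chr5:112840800-112841999, covered 1200 bases against 600 with siRNA 1 and 400 with siRNA 2. The control-only APC peaks, at percentiles 56.8 and 57.1, were the only control peaks of the 10 genes found in neither siRNA list, against 22.3% of all control peaks. Their −log10 FDR values were 2.44 and 2.50, so they pass an FDR of 0.01.

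GSK3B (ENSG00000082701, minus strand of chromosome 3), the kinase that marks beta-catenin for destruction, had 1 peak in every list, wholly in the 5′ UTR. It began 30 bases inside the RefSeq gene start and covered 600 bases in control (chr3:120093818-120094417), the same 600 with siRNA 2 and 800 with siRNA 1. The score was 354, 132 and 340 in control, siRNA 1 and siRNA 2. The fold was 26.9, 63.1 and 43.1, and the −log10 FDR 5.96, 25.5 and 10.4. By fold its percentile was 63.8, 91.4 and 81.5. The within-list percentile of GSK3B was thus lowest in control by score and by fold, which measures no change between lists and was not tested.

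CTNNB1 (ENSG00000168036, plus strand of chromosome 3), the messenger of beta-catenin itself, had its strongest peak at the 3′ end in every list. The control peak covered 800 bases across the stop codon and into the 3′ UTR, chr3:41239225-41240024, with score 3894 (rank 208), fold 28.1 and −log10 FDR 4.93. In both siRNA lists the strongest peak was the downstream 400 bases of this stretch, chr3:41239625-41240024, annotated to the 3′ UTR alone, with scores of 803 (rank 152) and 2258 (rank 178). The fold of that peak was 47.7 with siRNA 1 and 25.2 with siRNA 2. The siRNA 1 list also held a peak over the stop codon, which covered 400 bases between 41237421 and 41239424 and shared 200 with the control peak, and a 5′ UTR peak (41199483 to 41200122). Both had −log10 FDR values under 2, at 1.81 and 1.62. By fold, the strongest CTNNB1 peak was less extreme, at percentiles 65.5, 86.1 and 62.7, and by −log10 FDR at 50.5, 75.5 and 42.0. The highest member by fold was LRP6 in control (95.1) and with siRNA 1 (92.1), and AXIN1 with siRNA 2 (92.1).

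TCF7L2 (ENSG00000148737, plus strand of chromosome 10), the factor that beta-catenin joins on DNA, had a single 200-base peak in the 5′ UTR, chr10:112950250-112950449. It was the same in the control and siRNA 2 lists, with scores of 67 and 31, folds of 14.0 and 15.4 and −log10 FDR values of 2.97 and 4.17. No siRNA 1 peak overlapped it under any gene symbol. The peak began 3 bases after the RefSeq gene start, so part of its sequence could be read from the RefSeq start windows (GRCh38.p14), which hold 250 bases before and 50 after each start. Bases 4 to 50 of the transcript lie in the peak, and they held 1 of the 18 words of the m6A consensus, each 5 letters long. These are the words named DRACH, in which D stands for any base but C, R for a purine and H for any base but G, and they were searched on the transcript strand. Words could overlap each other, and the count is of different words found. The 30 bases around the match, at chr10:112950254-112950283 on the plus strand, are shown with the word, bases 20 to 24 of the transcript, in capitals.
TCF7L2: atctccgctcccAGACTactccgttcctcc
A word of this kind was in 46.7% of the 34796 start windows at the same place, and in 46.8% on the opposite strand, so the match is a description and marks no methylated base. The other 5′ peaks that reach into a matched window held none of the words there. LRP6 and AXIN2 were not matched to a window. They were those of GSK3B (20 bases), DVL3 (39 bases), LRP5 with siRNA 1 (32 bases) and CTNNB1 with siRNA 1 (72 bases). Windows at the same places held a word in 21.2%, 40.7%, 34.3% and 61.2% of all starts.

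Across the 10 genes, more members had a 5′ UTR peak in each siRNA list than in control. A peak touching the 5′ UTR was found in 4 of 9 members with a control peak (LRP6, AXIN1, GSK3B and TCF7L2), 7 of 8 with siRNA 1 and 7 of 10 with siRNA 2. Over all genes with a peak the shares were 32.7%, 40.0% and 35.1%, of 9546, 8362 and 8552 genes. The number of genes with such a peak was 3119, 3343 and 3003, so by number the siRNA 2 list held fewer than control. Of the 7 members in both the control and siRNA 1 lists, LRP5, DVL1 and CTNNB1 had a 5′ UTR peak with siRNA 1 alone, against 9.45% of such genes in the series, and 0 had one in control alone, against 7.53%. Of the 9 in both the control and siRNA 2 lists, DVL1 and AXIN2 had one with siRNA 2 alone, against 6.29%, and 0 in control alone, against 6.36%. Among the 7 members in all 3 lists, DVL1 alone had one with each siRNA and none in control, against 4.47% of such genes, and 0 had the reverse, against 4.74%. These comparisons use the same control list. The CTNNB1 5′ UTR peak with siRNA 1 had a −log10 FDR of 1.62 and overlapped no peak of either other list. The AXIN2 peak with siRNA 2 had score 16 and overlapped peaks assigned to CTD-2535L24.2. A stop codon was included in a peak of 6 of 9, 6 of 8 and 5 of 10 members, beside 59.0%, 59.8% and 59.1% of all genes. The control and siRNA 2 counts include AXIN2, whose peaks end 21065 bases before the RefSeq gene end. More than 1 peak was found on 2 members in control (LRP6 and APC), 7 with siRNA 1 and 4 with siRNA 2, beside 39.3%, 38.7% and 37.8% of all genes. These counts are small, and the part that the makeup of each list has in them was not tested.

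Most control peaks of the 10 genes overlapped a peak of each siRNA list, as did most control peaks of the series. Of the 16 control peaks, 13 overlapped a siRNA 1 peak and 13 a siRNA 2 peak by at least 1 base on the same strand, against 67.1% and 73.4% of all control peaks. Overlap with both lists was found for 12 of 16, against 62.8%. Of the 19 siRNA 1 peaks, 13 overlapped control, against 81.5% of all siRNA 1 peaks, and of the 16 siRNA 2 peaks 13 did, against 86.1%. The siRNA lists overlapped each other in 14 of 19 siRNA 1 peaks and 15 of 16 siRNA 2 peaks, against 83.6% and 80.5%. Both other lists held 11 of the 19 and 12 of the 16, against 75.9% and 73.2%. No siRNA 2 peak of the 10 genes was without a match, against 6.51% of that list. The 3 siRNA 1 peaks found in neither other list, against 10.8%, were the AXIN1 coding peak, the DVL3 stop codon peak and the CTNNB1 5′ UTR peak. The siRNA 1 match of the AXIN2 control peak is the one assigned to CTD-2535L24.2.

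Covered bases moved in different directions from gene to gene. With siRNA 1, LRP6 and APC had fewer covered bases than in control, and LRP5, DVL1, AXIN1, GSK3B and CTNNB1 had more. That is 5 of 7 with more, against 21.0% of the genes in both lists, while 56.5% of those genes had fewer. With siRNA 2, LRP6, APC and CTNNB1 had fewer, LRP5, DVL1 and AXIN2 had more, and AXIN1, GSK3B and TCF7L2 had the same number, against 48.5% with fewer and 22.2% with more over all such genes. APC had the widest gap, from 4000 bases in control to 2200 and 2000.

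**Figure D3:**
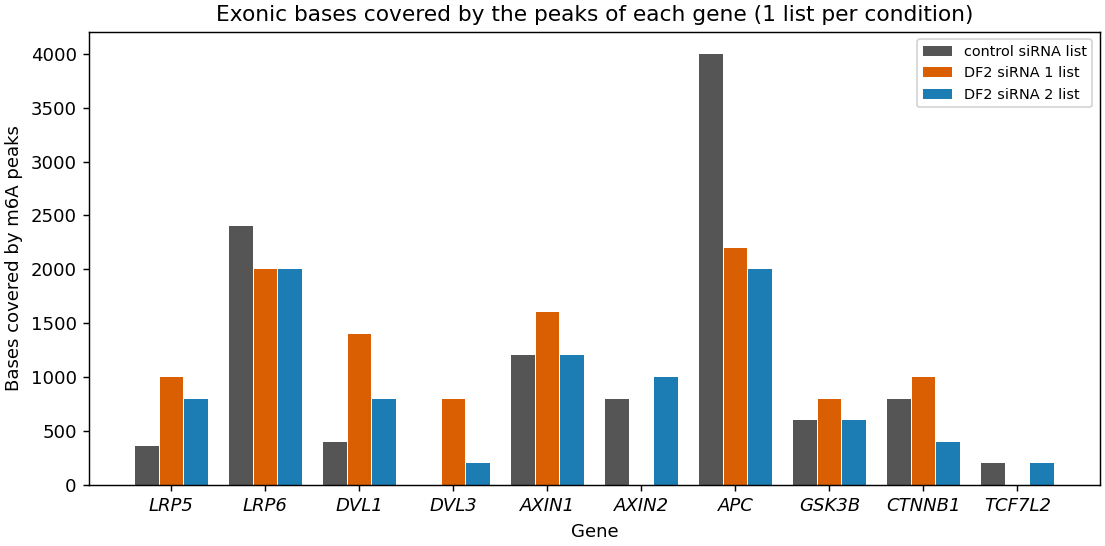
Exonic bases covered by the m6A peaks of each of the 10 genes, with a bar per list and no error bars, since there is 1 list per condition. APC covers 4000 bases in control and 2200 and 2000 in the siRNA lists, while LRP5 and DVL1 cover fewer bases in control (364 and 400) than in either siRNA list.

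The rest of the pathway was taken from a list of 108 further WNT genes in 7 role classes. A peak was found for 61 of them in control, 60 with siRNA 1 and 58 with siRNA 2, and 65 had one in any list. The share of all annotated genes with a peak was not counted, so these numbers out of 108 have no background. All 3 lists held a peak for 55 of these 65, or 84.6%, against 65.4% of all genes. Of the 65, 4 had a peak in control alone and 2 with each siRNA but not in control, beside 12.0% and 3.54% of all genes. The 4 were 1 when the lists were cut to the same number of peaks by score, and 2 in the upper 50% of each list by score. The 2 were 1 in that upper 50% and with an FDR under 0.01. In the top 50% of each list by fold enrichment, the number in all 3 lists was 35. Shares of all genes under these cuts were not counted, so 65.4%, 12.0% and 3.54% are no background for the cut lists.

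The number of genes with any peak is given by class as a description, again without a share over all annotated genes. Receptors had a peak for 12 of 13 genes and cytoplasmic signalling and destruction complex genes for 20 of 23. Ligands and their export factors had one for 9 of 21 and antagonists for 4 of 15. All 11 nuclear factors with a peak, out of 17, had one in every list, as did 6 of 10 often reported target genes and 3 of 9 agonists and receptor turnover genes. A gene without RNA in these cells can have no peak, and RNA levels were not measured here.

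Among upstream genes, the ligands WNT6 (percentile 96.7 in control, 93.7 with siRNA 1 and 94.8 with siRNA 2) and WNT7B (88.3, 86.2 and 93.2) had high stop codon peaks, as did WLS, which carries WNT proteins to the cell surface (92.3, 79.5 and 81.0). LGR4, a receptor for R-spondins, stood at 99.0, 96.8 and 91.3. ZNRF3, a ubiquitin ligase that removes Frizzled receptors, stood at 95.7, 94.7 and 97.1, and its relative RNF43 at 74.4, 82.2 and 68.3. The receptors ROR2 (97.4, 97.2 and 98.0), FZD6 (95.7, 91.2 and 83.7) and ROR1 (79.0, 66.8 and 59.7) had the highest percentiles of their class in control. The Dickkopf receptors KREMEN1 (70.1, 74.9 and 73.0) and KREMEN2 (56.3, 76.0 and 69.0) were the antagonist genes present in every list.

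Among downstream genes, CSNK1G2, a casein kinase (92.9, 94.3 and 94.7), PPP2CA, a phosphatase catalytic subunit (92.6, 68.4 and 69.1), and USP34, a deubiquitinase (87.6, 86.1 and 85.4), had the highest percentiles of the cytoplasmic class in control. The beta-catenin co-activator BCL9L stood at 98.2, 98.1 and 99.0, and the co-repressors CTBP2 at 94.6, 89.8 and 88.5 and TLE3 at 91.0, 92.2 and 94.5. The targets SNAI2 (84.0, 64.3 and 78.8), TBX3 (77.9, 84.6 and 90.1) and CCND1, the cyclin gene (77.3, 76.8 and 79.3), had peaks in every list.

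The 4 genes with a peak in control alone were WNT2B, RYK, a WNT receptor, FBXW11, a ubiquitin ligase subunit that binds phosphorylated beta-catenin, and PPP2R1A, a phosphatase scaffold. Their control percentiles were low, at 17.6, 8.03, 4.45 and 8.03. The 2 found with each siRNA but not in control were NOTUM, a secreted enzyme that inactivates WNT proteins, at percentiles 16.3 and 16.0, and GSK3A, the relative of GSK3B, at 22.8 and 46.6. The GSK3A peak touched the 5′ UTR in both siRNA lists, the same part that carried the GSK3B peak. DVL2, the remaining Dishevelled gene, named after its values were seen, had a 5′ UTR peak with siRNA 1 alone, at percentile 22.8.

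**Figure D4:**
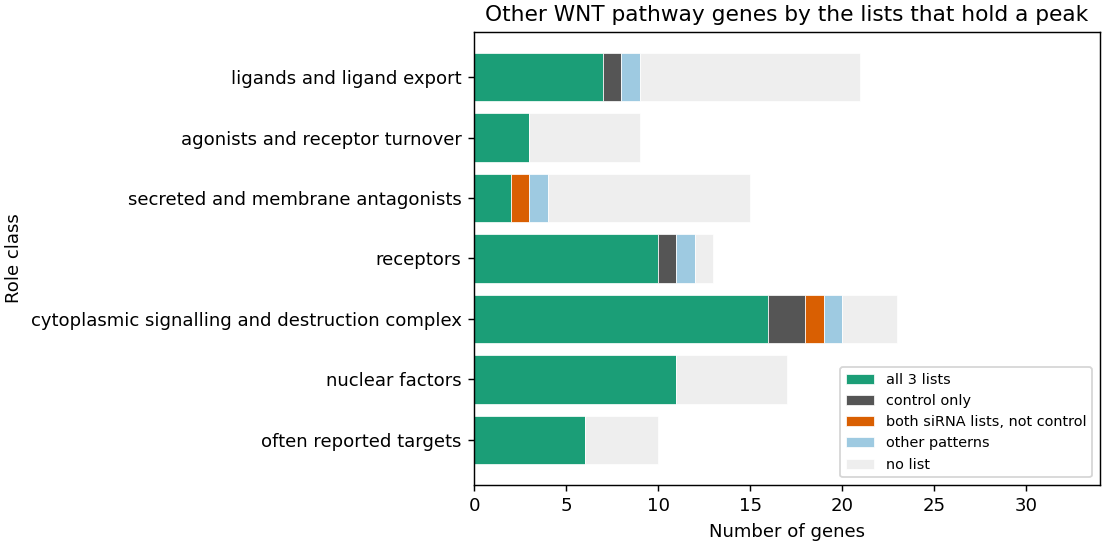
Number of genes in each role class of the 108 further WNT pathway genes, split by the lists that hold a peak of the gene. Peaks in all 3 lists make up the largest group among genes with a peak in every class, with 11 of 11 nuclear factors and 16 of 20 cytoplasmic genes.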

How the data were processed

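The 6 samples, an input and an m6A-IP library per siRNA treatment of U2OS cells, were grouped by their labels. The submitters' processing notes name HISAT2, without a version, and hg38. The peak caller, the annotation release and what r1 and r2, which each list names as merged, stand for were not stated by labels or headers. The authors' score, as deposited, has whole values from 3 up and no definition. The fold enrichment (ratio) and the −log10 FDR are the authors' values, per the file headers, and every peak had an FDR under 0.05.

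For minus-strand peaks the order of block sizes was turned around, and 0 peaks then ended elsewhere than their last block. Percentiles are mid-ranks within a list. Symbols were updated through RefSeq (GRCh38.p14), with 8843 of 10785 current and 658 updated. Start windows of RefSeq were matched for 8 of the 10 members, not LRP6 and AXIN2. Positions within a gene are from RefSeq spans. The overlap code, in Python 3.11.15, was tested on simulated data. Members and lists were chosen with earlier results of these data known. All 10 members were named, and of the further genes all with a peak in control alone or in both siRNA lists alone, and the 3 of each class with the highest control percentile among those in all lists. DVL2 was named after its values were seen. Alternatives were other subsets of peaks, overlap rules and rankings.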

Additional observations from a re-analysis of the deposited data

Results flagged for a closer look

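CTNNB1 was singled out because its covered bases moved in opposite directions with the DF2 siRNAs. With siRNA 1 the covered bases were 200 more than in control (1000 against 800), and with siRNA 2 the difference from control was -400 (400 against 800). The siRNA 1 total includes 200 bases of the 5′ UTR peak and 400 of the stop codon peak, with −log10 FDR values of 1.62 and 1.81. The difference was not tested, since there is 1 list per condition.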

How the results depend on the processing

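Of 108 alternative counts, 97 stayed within 1.5 times the reported one, and the 11 others and all 9 alternative medians follow. Members found with each siRNA but not in control, 1 as reported, were 3 (FDR under 0.01) or 2 (upper 50% of each list, whether by score or fold), and members with a control peak were 5 by fold. For the further WNT genes, those in control alone were 1 when lists were cut to equal length and 2 in the upper 50% by score, those in both siRNA lists alone 1 with an FDR under 0.01 and in the top 50% by score, and those in all lists 35 in the top 50% by fold. In the top 50% by score, 8 of 13 control peaks were found with siRNA 2 and 8 of 10 siRNA 2 peaks in control. Shares over all genes or all peaks were not counted under these alternatives, so these counts have no background. The medians moved by less than 1.5 times but by more than the 95% exact binomial interval over a list's peaks. That interval rests on the number of all peaks in a list and does not measure the spread of a median over so few members. The median percentile of the members' strongest peaks, over 9, 8 and 10 members, was 65.7, 81.8 and 71.6 in control, siRNA 1 and siRNA 2. It was 63.8, 84.6 and 58.6 by fold, and 54.7, 78.2 and 49.1 by −log10 FDR. Among stop codon and 3′ UTR peaks it was 60.4, 74.7 and 60.7. Those last medians cover only the 6, 3 and 4 members whose strongest peak was of that kind, so the sets of members differ. Counting CTD-2535L24.2 for AXIN2, chosen after seeing the data, gave 9 members with siRNA 1 and 8 in all lists. No paired analysis was possible because each condition has 1 list. Leaving out a replicate was likewise not possible.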

Other observations

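Among the 55 further WNT genes with a peak in every list, 6 had a peak touching the 5′ UTR with each siRNA but not in control, against 4.47% of all genes in every list. They were LGR4 and ZNRF3, which act on Frizzled turnover at the membrane, RNF146, a ubiquitin ligase for AXIN proteins marked by tankyrase, the co-repressors TLE1 and CTBP2, and CCND1. The reverse, a 5′ UTR peak with control siRNA alone, was found for 1, ROR2, against 4.74% of all genes in every list. These genes were picked out after their values were seen, and the siRNA lists share their control list.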
